A study of Mus musculus with 14 samples.

Results

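The BCL-2 family sets whether a stressed cell opens the outer membrane of its mitochondria and dies. Multidomain effectors such as BAX and BAK form the pore, guardians such as BCL-2, BCL-XL and MCL-1 hold them in check, and BH3-only proteins such as PUMA, NOXA, BIM and BID engage the guardians or the effectors. In fibroblasts with DNA damage, the transcription factor p53 is known for raising the genes of several pro-apoptotic members, with Bbc3, Pmaip1 and Bax as textbook examples. Here 10 genes of this family, chosen by symbol from 20207 genes listed, were followed across wild-type and p53-/- cells, namely Bbc3, Pmaip1, Bcl2l11, Bid, Bax, Bak1, Bok, Bcl2, Bcl2l1 and Mcl1. All 10 were listed in every RNA file.

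The cells were mouse embryo fibroblasts (MEFs), primary connective-tissue cells of strain 129/Sv, of genotype wild-type or p53-/-, either untreated or kept for 6 h in 0.2 µg/ml doxorubicin, a drug that breaks DNA by trapping topoisomerase II. Both wild-type groups had 3 RNA libraries and both p53-/- groups had 2. RNA was read at its 3′ ends, so the splice forms of a gene, such as the long and short forms of Bcl2l1, were not separated. Levels are in CPM, reads per 1000000 reads after scaling, and are compared only within a gene. The labels number the replicates without saying whether they are separate cultures or embryos, and the p-values reflect the spread among these libraries.

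Libraries held 9768160 to 11770448 reads over the listed genes in wild type and 18099506 to 25970157 in p53-/- cells, so depth went with genotype. Fibroblast markers were all detected in every group, with a summed level of 4760 to 9967 CPM, though untreated wild type reached 9967 and treated p53-/- cells 5010. Between untreated genotypes 6 of 12 were called by limma-trend, 1 higher and 5 lower in wild type, against 33.1% of all tested genes. In the wild-type response 1 was called higher and 2 lower, against 12.6% of all tested genes called. Summed blood and macrophage markers ran from 59.4 to 295.6 CPM in untreated and from 29.7 to 138.1 in treated wild type, and from 41.6 to 55.4 in p53-/- cells. Of 8 such markers tested, 0 passed in either response by limma-trend, against 12.6% of all tested genes in wild type and 0% in p53-/- cells. Between untreated genotypes 1 was higher in wild type, against 33.1% of all tested genes called. Median log2 differences were -0.81 in the wild-type response and 1.04 between untreated genotypes. Ptprc, Fcer1g, Cd53 and Emr1 were not tested, with at most 0.629 CPM in a library. Endothelial markers summed to at most 4.31 CPM, with 4 of 6 at 0 reads in untreated wild type. Epithelial and muscle markers reached 221.9 and 317.9 CPM, carried by Krt18 and Krt19 and by Des and Acta1. Epcam, Cdh1 and Krt8 had at most 0.595 CPM in a library, Myod1 at most 0.28 and Myog at most 1.07. The part of other cell types in the results below was not tested. In bulk RNA fewer cells of a type and less RNA per cell cannot be told apart. Trp53, the deleted gene, still gave 29.5 to 74.2 CPM in p53-/- libraries and 20.1 to 43.4 in wild type. Reads from the 3′ end do not check a deletion that lies upstream. Cdkn1a, a p53 target encoding p21, averaged 4536 CPM in treated wild-type and 49.2 CPM in treated p53-/- cells. Reads of 4 Y-linked genes set wild-type number 1, with 166 untreated and 147 treated, apart from numbers 2 and 3, with 0 to 9, so the wild-type replicates are not all repeats of 1 cell source. Whether numbers 2 and 3 differ in source is not given. The p53-/- libraries numbered 1 had 207 untreated and 136 treated, with 22 and 29 reads of Xist. Those numbered 2 had 216 and 15, with 15 and 399 reads of Xist, so they are not repeats of 1 cell source. Wild-type libraries held 82 to 263 reads of Xist. These markers of sex were thus not matched between the genotypes, nor between the p53-/- libraries numbered 2. The part of sex in the results below was not tested.

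RefSeq windows of 250 bases before to 50 bases after a transcription start (GRCm38.p6) were at hand for 9 of the 10 genes, 14 windows in all. Pmaip1 had no window at hand and was not scanned. The windows are shown for Bbc3 and Bax, the genes whose windows held a match. All were scanned for the p53 half-site consensus of 10 bases, which reads the same on both strands, with its central bases required to match. A pair of half-sites was at most 13 bases apart. Capitals mark the half-sites of a pair, and the bases between them are in lower case. A first scan allowed 2 mismatches over a pair and found the Bax pair alone. The limit was widened to 3 after the Bbc3 window had been seen, so the Bbc3 match was chosen with its sequence known.
Bbc3, chr7:16309333-16309632, plus strand: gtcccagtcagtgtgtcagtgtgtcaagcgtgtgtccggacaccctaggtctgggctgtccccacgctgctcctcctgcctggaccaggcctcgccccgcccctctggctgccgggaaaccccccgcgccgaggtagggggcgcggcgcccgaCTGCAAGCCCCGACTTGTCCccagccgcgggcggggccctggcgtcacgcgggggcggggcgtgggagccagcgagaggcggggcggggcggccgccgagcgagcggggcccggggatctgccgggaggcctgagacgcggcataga
Bax, chr7:45466849-45467148, minus strand: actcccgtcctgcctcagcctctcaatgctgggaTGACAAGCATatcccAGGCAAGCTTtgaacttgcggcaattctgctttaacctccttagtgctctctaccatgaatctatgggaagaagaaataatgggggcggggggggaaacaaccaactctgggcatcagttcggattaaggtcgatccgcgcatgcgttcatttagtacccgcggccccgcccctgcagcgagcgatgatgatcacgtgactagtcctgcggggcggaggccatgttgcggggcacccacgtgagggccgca

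The Bax window held a pair at -216 to -192 from the start, 5 bases apart, with 2 mismatches over both half-sites and 1 half-site exact. The first of the 3 Bbc3 windows held a pair at -97 to -78 with no gap and 3 mismatches. None of the other 12 windows of these genes held a pair with up to 3 mismatches. In the same scan the p53 target Cdkn1a gave 1 window with a pair, while Mdm2 and the p53 target Ccng1 gave 0. Over all 32851 windows, 2.12% held a pair with up to 2 mismatches, 6.72% one with up to 3, and 8.36% an exact half-site. A match is a description of letters and not a measured binding site. The p53 binding sites of the series are on the mm9 build and were not set against these windows.

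Doxorubicin raised 4 of the 10 genes in wild-type MEFs and lowered 1, by limma-trend at an adjusted p under 0.05 over 11177 tested genes. Bbc3, Pmaip1, Bax and Bcl2l11 were higher, and Bok was lower. All of these are pro-apoptotic genes, as are Bak1 and Bid, which were not called. Among all tested genes 8.03% were called higher and 4.55% lower, 12.6% in all. In 6 of the 10 genes the treated and untreated libraries did not overlap, against 28.9% of tested genes. The median log2 fold of the 10 was 0.34, beside 0.05 for all tested genes. All 10 passed the filter of 1 CPM in 2 libraries, but Pmaip1 did so only through treated wild-type libraries and Bid only through p53-/- libraries, so the filter itself favoured a difference in these genes. Bbc3, Pmaip1 and Bax were chosen with their role as p53 targets known, so their count is no independent evidence.

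**Figure D1:**
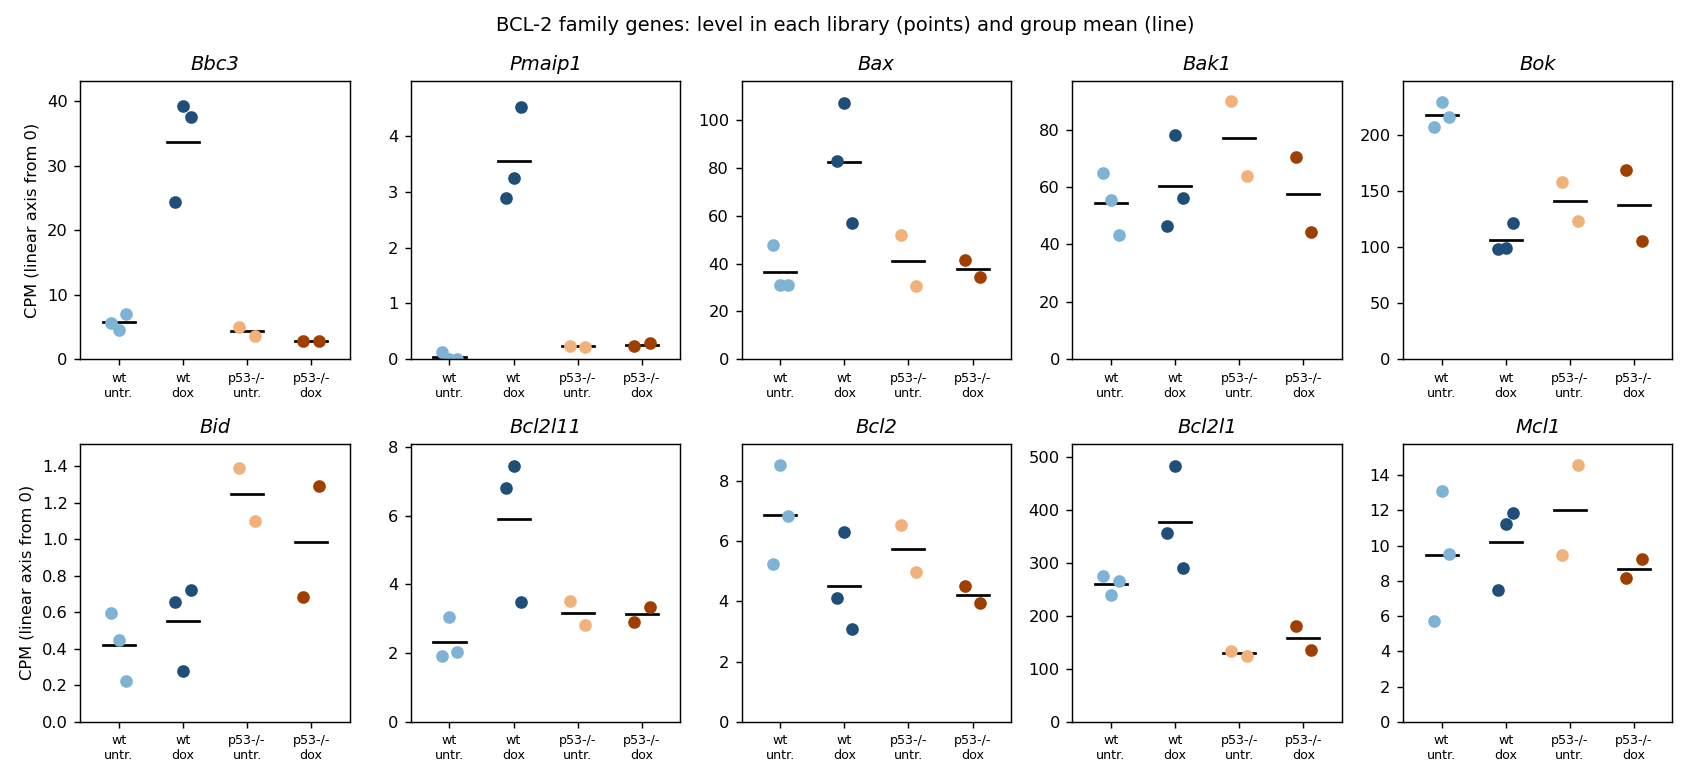
Level of each of the 10 genes in CPM (linear axis from 0, a scale of its own in each panel) in the 4 groups. Points are libraries and lines are group means. For Bbc3 and Pmaip1 the 3 treated wild-type libraries stand above all 7 others.

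Among the BH3-only genes, Bbc3 encodes PUMA, which binds every main guardian. Its levels in untreated wild-type libraries 1, 2 and 3 were 5.59, 4.58 and 6.96 CPM. With doxorubicin they were 24.3, 39.2 and 37.6 CPM. Every treated library lay far above every untreated one. The mean went from 5.71 (SD 1.20, n = 3) to 33.7 CPM (SD 8.19, n = 3), or 2.45 in log2 (SE 0.28, adjusted p = 0.000449). In p53-/- libraries 1 and 2, Bbc3 stood at 4.90 and 3.65 CPM untreated and at 2.84 and 2.80 CPM treated. Both treated p53-/- libraries were the lowest of the 10, and the p53-/- fold did not pass (-0.51 in log2, SE 0.34, adjusted p = 0.598).

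Pmaip1 encodes NOXA, a BH3-only protein that chiefly binds MCL-1. Untreated wild-type libraries held 1, 0 and 0 reads of it, and treated ones held 31, 35 and 44. The ratio of depth-scaled reads was 100, with an exact 95% interval for counting error of 17.6 to 4000. On the log2 scale with 0.5 CPM added the fold was 2.90 (SE 0.23, adjusted p = 4.44e-05), a value that the added amount compresses. The p53-/- libraries held 5 and 5 reads untreated and 6 and 9 treated, a ratio of 1.12 (interval 0.472 to 2.80). Pmaip1 was thus near the floor in 7 libraries and above 2 CPM in 3, with treated wild type at 3.56 CPM (SD 0.858, n = 3).

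Bcl2l11 encodes BIM, a BH3-only protein known for responding to loss of growth factors. Untreated wild-type libraries had 1.90, 3.05 and 2.02 CPM, and treated ones had 6.82, 7.44 and 3.50 CPM. The groups did not overlap, but treated library 3 was close to untreated library 2. The log2 fold was 1.14 (SE 0.33, adjusted p = 0.0452), and this call was lost under 15 of 23 other settings. Among them was leaving out any 1 library except treated wild-type replicate 3, with adjusted p of 0.0661 to 0.143. In p53-/- cells the 4 libraries lay between 2.81 and 3.51 CPM, or -0.01 in log2 fold (SE 0.40, adjusted p = 0.998). The gene Acoxl overlaps Bcl2l11 in GRCm38.p6 and had at most 0.372 CPM.

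Bid, whose protein is cut by caspase-8 to carry death-receptor signals to mitochondria, was scarce. Wild-type libraries held 2 to 5 reads untreated and 3 to 7 treated, and p53-/- libraries held 18 to 41. The wild-type ratio of depth-scaled reads was 1.29 with doxorubicin, with an exact 95% interval of 0.582 to 2.97. A change within that range was not detectable at this depth.

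The effectors did not move together. Bax, which encodes a pore-forming effector, had 47.7, 31.0 and 31.0 CPM in untreated wild-type libraries. Treated libraries had 83.1, 107.1 and 56.9 CPM. All treated libraries were above all untreated ones, though they differed among themselves by nearly as much. The mean went from 36.6 (SD 9.66, n = 3) to 82.4 CPM (SD 25.1, n = 3), or 1.14 in log2 (SE 0.30, adjusted p = 0.034), and the call was lost under 10 of 23 other settings. Among them was leaving out untreated wild-type replicate 2 (adjusted p = 0.121) or 3 (0.12), treated wild-type replicate 1 (0.0854) or 2 (0.0941), or treated p53-/- replicate 1 (0.0547) or 2 (0.0564). In p53-/- libraries Bax was at 51.8 and 30.6 CPM untreated and at 41.4 and 34.4 treated, so the groups overlapped (log2 fold -0.08, SE 0.37).

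Bak1, encoding the effector BAK that sits on the mitochondrial membrane in healthy cells, had overlapping groups in both genotypes. Untreated wild-type libraries ran from 43.2 to 64.7 CPM and treated ones from 46.2 to 78.3. The log2 fold was 0.13 with a 95% interval of -0.49 to 0.75, so a rise of the size fitted for Bax lay outside the interval. In p53-/- cells the log2 fold was -0.44 (SE 0.34, adjusted p = 0.651). The overlapping gene Ggnbp1 had at most 2.96 CPM.

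Bok encodes a BAX-like effector that the known guardians hold in check poorly. It was the 1 gene of the 10 called lower with doxorubicin in wild type. Its levels were 207.1, 229.3 and 215.4 CPM in untreated wild-type libraries and 97.8, 99.02 and 120.8 CPM in treated ones. The 2 groups were tight and well apart, with means of 217.3 (SD 11.3, n = 3) and 105.9 CPM (SD 12.9, n = 3). The log2 fold was -1.04 (SE 0.21, adjusted p = 0.0112), and it passed under all 23 other settings. The p53-/- libraries had 157.8 and 123.2 CPM untreated and 168.1 and 105.5 treated. Library 1 was the higher in both p53-/- groups, and treatment left the mean at 136.8 against 140.5 CPM (log2 fold -0.07, SE 0.26, adjusted p = 0.946).

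None of the 3 guardian genes passed in wild type. Bcl2l1, which encodes BCL-XL, had 275.2, 239.8 and 266.1 CPM untreated and 356.3, 481.4 and 289.4 CPM treated. The groups did not overlap, but treated library 3 was close to the untreated range. The log2 fold was 0.50 (SE 0.21, adjusted p = 0.164). In p53-/- libraries it was at 133.6 and 124.1 CPM untreated and at 180.3 and 136.1 treated, or 0.28 in log2 (SE 0.26, adjusted p = 0.708).

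Bcl2, the founding member of the family, ran from 5.24 to 8.53 CPM in untreated and from 3.09 to 6.32 CPM in treated wild-type libraries. The groups overlapped, while each treated library was below the untreated one of its number. The log2 fold was -0.58 (SE 0.31, adjusted p = 0.261). Both treated p53-/- libraries, at 4.51 and 3.93 CPM, were also below both untreated ones, at 6.53 and 4.97 CPM (log2 fold -0.40, SE 0.38, adjusted p = 0.723). Mcl1, encoding a short-lived guardian, ran from 5.71 to 13.1 CPM untreated and from 7.47 to 11.8 CPM treated in wild type. Its log2 fold was 0.15 in wild type (95% interval -0.60 to 0.90) and -0.42 in p53-/- cells (interval -1.33 to 0.50).

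**Figure D2:**
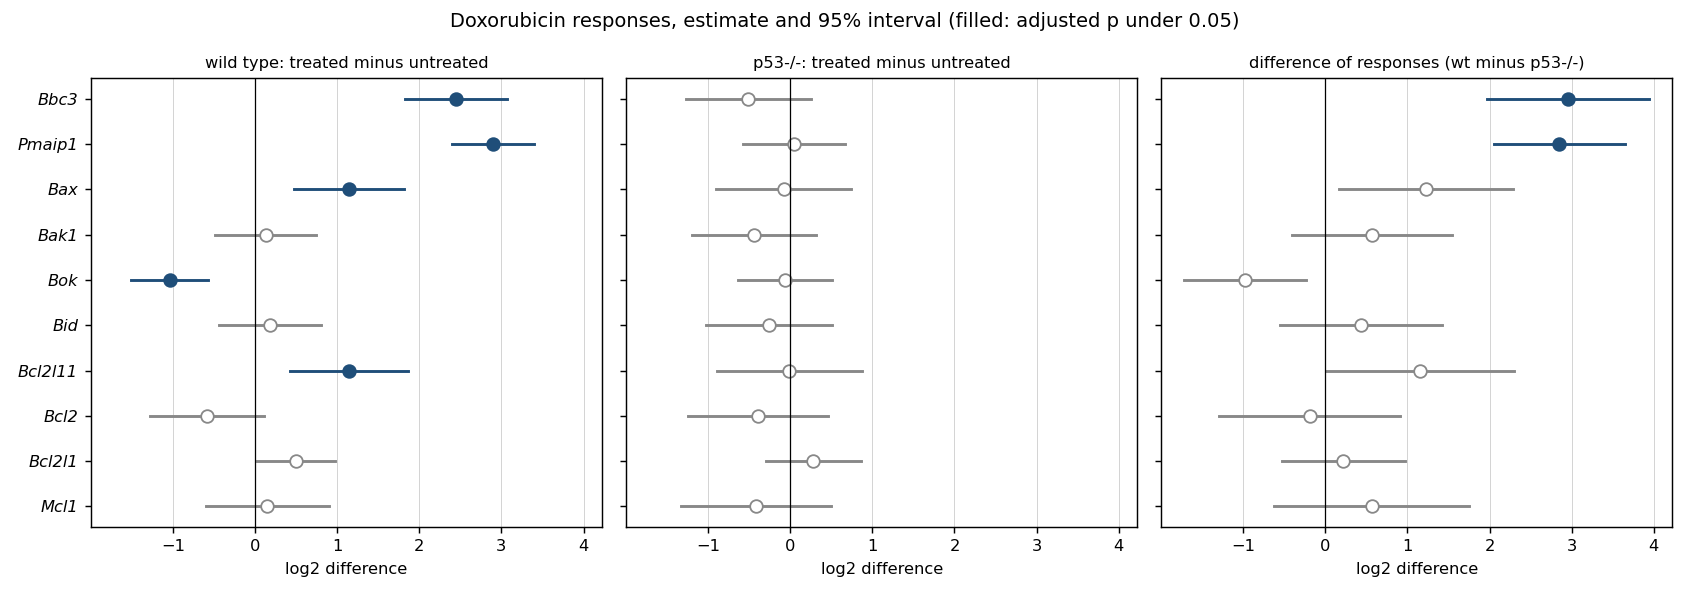
Log2 difference (x axis, shared by the panels) of treated minus untreated wild type, treated minus untreated p53-/-, and the difference between these responses. Points are limma-trend estimates, bars are 95% intervals without correction for multiple tests, and filled points passed an adjusted p under 0.05. In wild type 5 of 10 points are filled, in p53-/- cells 0, and in the difference 2.

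In p53-/- MEFs 0 of the 10 genes passed, as did 0 of all 11177 (0%), by limma-trend and by limma-voom. Without adjustment, 1254 genes (11.2%) had a p under 0.05, and none of the 10 was among them. Estimates ran from -0.51 for Bbc3 to 0.28 for Bcl2l1, with a median of -0.17 beside -0.075 for all tested genes. In 4 of the 10 genes the 2 treated p53-/- libraries did not overlap the 2 untreated ones, against 53.8% of all tested genes. With 2 libraries a group, the 95% interval of Bax still reached from -0.90 to 0.74.

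The difference between the genotypes' responses was tested in the same model. Of all tested genes 2.34% were called in this comparison, 1.89% higher and 0.447% lower. Pmaip1 entered the test only through treated wild-type libraries, so the filter favoured a difference in it. Bbc3 and Pmaip1 passed, at 2.96 (SE 0.44, adjusted p = 0.0088) and 2.85 (SE 0.36, adjusted p = 0.00432). Bbc3 lost this call without untreated p53-/- replicate 1 (adjusted p = 0.0848) and without treated p53-/- replicate 1 (adjusted p = 0.0517). Without both p53-/- libraries numbered 2 neither passed, at adjusted p = 0.189 for both and log2 differences of 3.12 and 2.84. Bax at 1.22 (SE 0.48, adjusted p = 0.187), Bcl2l11 at 1.15 (SE 0.51, adjusted p = 0.235) and Bok at -0.97 (SE 0.33, adjusted p = 0.147) did not pass, so their wild-type changes are not shown to differ from those without p53. With the replicate number as a block, Bok passed at adjusted p = 0.0449. That block also paired the p53-/- libraries by number. Those numbered 1 are not shown to pair, and those numbered 2 are not of 1 cell source.

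Within a replicate number, Bbc3 rose in every wild-type pair, by log2 folds of 2.02, 2.97 and 2.35. It stood at -0.69 and -0.33 for p53-/- numbers 1 and 2. The p53-/- libraries numbered 1 are not shown to pair, and those numbered 2 are not of 1 cell source. Bok was lower in every wild-type pair, at -1.08, -1.21 and -0.83, and at 0.09 and -0.22 for the p53-/- numbers. Bcl2 did not pass, with or without the replicate block (adjusted p = 0.112 with it), and gave -0.32, -0.41 and -1.03 in the wild-type pairs and -0.49 and -0.30 for the p53-/- numbers. Bax gave 0.79, 1.77 and 0.87 in wild type, with library pair 2 well above the others, and -0.32 and 0.16 in p53-/- cells. Pair 2 was also the highest for Bcl2l1, at 1.00 against 0.37 and 0.12. For Bcl2l11 the order differed, with pair 1 the highest at 1.61 and pairs 2 and 3 at 1.16 and 0.67.

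Between untreated genotypes, Bcl2l1 was higher and Bid lower in wild type, 2 of 10 genes, against 33.1% of all tested genes, 12.7% higher and 20.4% lower. In 4 of the 10 the genotypes' libraries did not overlap, against 64.9% of tested genes. Bcl2l1 averaged 260.4 CPM (SD 18.4, n = 3) in wild type and 128.8 CPM (SD 6.76, n = 2) in p53-/- cells. The lowest wild-type library, at 239.8 CPM, was well above the highest p53-/- library, at 133.6 CPM. The wild-type minus p53-/- log2 difference was 1.01 (SE 0.24, adjusted p = 0.0125). It did not pass with upper quartile scaling (adjusted p = 0.0534) or without untreated p53-/- replicate 1 (adjusted p = 0.0795), replicate 2 (adjusted p = 0.0884) or both p53-/- libraries numbered 2 (adjusted p = 0.114). Cox4i2, which overlaps Bcl2l1, had at most 3.46 CPM.

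Bid had 12 reads in untreated wild type and 54 in untreated p53-/- cells, a ratio of depth-scaled reads of 0.340 with an exact 95% interval of 0.166 to 0.644. The filter kept Bid only through p53-/- libraries and so favoured this difference. The log2 difference was -0.94 (SE 0.31, adjusted p = 0.0438), and this call was lost under 11 of the 21 other settings in which it was tested. These included leaving out untreated wild-type replicate 2 (adjusted p = 0.0843) or 3 (0.138), treated wild-type replicate 1 (0.0516), or untreated p53-/- replicate 1 (0.22) or 2 (0.132). Bbc3, at 5.71 and 4.27 CPM, did not pass (adjusted p = 0.373), nor did Bax at 36.6 and 41.2 CPM (adjusted p = 0.742). The 95% intervals of these log2 differences were -0.32 to 1.07 for Bbc3 and -0.90 to 0.60 for Bax. Cdkn1a differed by 4.46 (SE 0.20) in the same untreated libraries. Bok, at 217.3 and 140.5 CPM, stood just short of the threshold (log2 difference 0.64, SE 0.24, adjusted p = 0.0609), and passed in 5 of 23 other settings, including without treated p53-/- replicate 1 (0.04) or 2 (0.0475).

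In treated cells, Bbc3, Pmaip1 and Bcl2l1 were higher in wild type than in p53-/- cells, 3 of 10 genes, against 6.82% of all tested genes called higher, 5.25% lower and 12.1% in all. In 5 of the 10 the genotypes' libraries did not overlap, against 41.8% of tested genes. The log2 difference was 3.33 (SE 0.31, adjusted p = 8.64e-05) for Bbc3. For Pmaip1 the summed reads were 110 and 15, a depth-scaled ratio of 13.7 (exact 95% interval 7.94 to 25.3). The filter kept Pmaip1 only through treated wild-type libraries and so favoured this difference. Bcl2l1 averaged 375.7 CPM (SD 97.5, n = 3) against 158.2 CPM (SD 31.3, n = 2), a log2 difference of 1.23 (SE 0.24, adjusted p = 0.00829). Its call was lost when only treated libraries were fitted (adjusted p = 0.06). In separate settings, it was also lost without treated p53-/- replicate 2 (log2 difference 0.97) and without both p53-/- libraries numbered 2 (0.966). Bax did not pass, at 82.4 against 37.9 CPM (log2 difference 1.07, SE 0.34, adjusted p = 0.0672). It passed in 3 of 23 other settings, namely the replicate block (adjusted p = 0.0216), limma-voom (0.0467) and leaving out treated wild-type replicate 3 (0.0391). Here the block joined wild-type and p53-/- libraries of the same number, which the labels do not link. This comparison and that of untreated cells share no library, while both share libraries with the responses above.

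**Figure D3:**
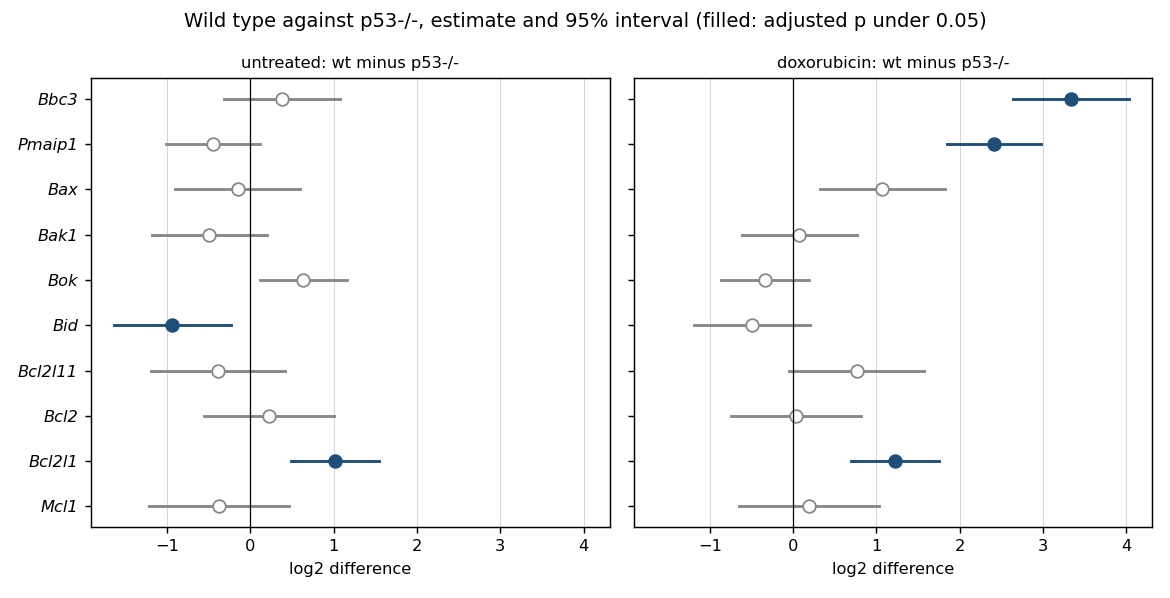
Log2 difference of wild type minus p53-/- cells (x axis) for each gene, untreated and treated, with 95% intervals not corrected for multiple tests. Filled points passed an adjusted p under 0.05. Bcl2l1 is filled in both panels, at 1.01 and 1.23, and Bbc3 only in treated cells, at 3.33.

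The balance of pro-apoptotic (Bax or Bbc3) and guardian reads was set side by side within each library, which needs no scaling between libraries. Bax reads per Bcl2 read were 9.11, 3.63 and 4.52 in untreated wild-type libraries and 20.2, 16.9 and 18.4 in treated ones. The p53-/- libraries gave 7.93 and 6.17 untreated and 9.18 and 8.74 treated. Bbc3 reads per Bcl2l1 read were 0.0203, 0.0191 and 0.0262 in untreated and 0.0682, 0.0815 and 0.130 in treated wild type. In p53-/- libraries they were 0.0367 and 0.0294 untreated and 0.0158 and 0.0206 treated. Bax reads per Bcl2l1 read moved less, from 0.117 to 0.173 in untreated to 0.197 to 0.233 in treated wild type, and the p53-/- libraries lay at 0.230 to 0.388. These ratios are descriptions with no test, and only their change between libraries can be read, since the genes may differ in how well their 3′ ends were counted.

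A list of 22 further BCL-2 family and BH3 genes had 13 tested members, of which 0 passed in either response by limma-trend, against 12.6% of all tested genes in wild type and 0% in p53-/- cells. Their median log2 fold was 0.16 in wild type and -0.29 in p53-/- cells. Bad and Bnip2 are given for their low p, a choice made after their values were seen. Bad, a BH3-only gene regulated by growth factor signals, went from 128.7 to 211.3 CPM in wild type (log2 fold 0.70, SE 0.22, adjusted p = 0.0666). Bnip2, an adaptor named for binding BCL-2-like proteins, went from 209.7 to 132.4 CPM (log2 fold -0.67, SE 0.20, adjusted p = 0.0586). Between untreated genotypes Bnip2 was the 1 member of the 13 that passed, against 33.1% of all tested genes (12.7% higher, 20.4% lower). It stood at 209.7 CPM in wild type and 77.0 CPM in p53-/- cells (log2 difference 1.44, SE 0.23, adjusted p = 0.00333). The 4 Bcl2a1 genes, near-identical copies known from blood cells, had 1 read in all 10 libraries together. How reads that match several copies were counted is not given, so this value does not show their absence.

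Among 25 genes of the mitochondrial step and after it, 20 were tested, and 1 rose and 0 fell in wild type, against 8.03% and 4.55% of all tested genes. That gene was Mff, which encodes a receptor for mitochondrial fission, from 1.97 to 4.59 CPM (log2 fold 1.08, SE 0.27, adjusted p = 0.0283). Cycs and Apaf1 did not pass and are given for their place in the pathway, chosen after their values were seen. Cycs, encoding cytochrome c, went from 24.1 to 39.9 CPM (log2 fold 0.72, SE 0.22, adjusted p = 0.0575), and Apaf1, whose protein builds the apoptosome, from 8.24 to 16.0 CPM (log2 fold 0.97, SE 0.39, adjusted p = 0.136).

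Between untreated genotypes 7 of these 20 genes were called, 2 higher and 5 lower in wild type, a share near the 33.1% of all tested genes (12.7% higher, 20.4% lower). Birc6, encoding a giant inhibitor of apoptosis, had the largest difference of the list, at 12.3 against 93.8 CPM (log2 difference -3.0, SE 0.39, adjusted p = 0.00143). Cycs was lower at 24.1 against 63.7 CPM, with Dnm1l (-1.51), Aifm1 (-1.48) and Mff (-1.38) in the same direction. Fis1 (0.94) and Diablo (0.97) were higher. Diablo, and Casp2 and Ywhaz below, ranked beyond the 6 smallest p of their lists and are named to complete the counts. In treated cells Apaf1 was higher in wild type (1.49, SE 0.43, adjusted p = 0.0496) and Birc6 lower (-1.78, SE 0.39, adjusted p = 0.0158).

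Of 22 genes that act on BCL-2 proteins or their genes, 21 were tested, and 3 rose and 0 fell in wild type, near the 12.6% of all tested genes called (8.03% higher, 4.55% lower). Fbxw7, whose protein marks MCL-1 for destruction among other targets, went from 3.69, 12.9 and 5.73 CPM to 18.9, 34.6 and 29.6 CPM (log2 fold 1.96, SE 0.41, adjusted p = 0.0129). Foxo3, encoding a transcription factor known to act on Bcl2l11 and Bbc3, went from 17 reads to 88 over the libraries (log2 fold 1.56, SE 0.29, adjusted p = 0.00791). It passed the filter only through treated wild-type libraries, so the filter itself favoured a difference in Foxo3. Siva1, a pro-apoptotic p53 target gene, went from 220.2 to 518.8 CPM (log2 fold 1.21, SE 0.22, adjusted p = 0.0059). The difference of responses did not pass for any of the 3, at adjusted p = 0.21, 0.0893 and 0.448. Siva1 stood at 89.5 CPM in untreated and 149.1 CPM in treated p53-/- cells.

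Untreated, 3 of these 21 genes were higher and 5 lower in wild type than in p53-/- cells, again near the 33.1% of all tested genes (12.7% higher, 20.4% lower). Siva1 (log2 difference 1.30), Foxo1 (1.09) and Bag1 (1.03), a BCL-2 binding chaperone gene, were higher. Trp53 itself (-1.62), Dynll1 (-1.59), Casp2 (-1.50) and Tmbim6 (-1.46), also known as BAX inhibitor 1, were lower, as was Ywhaz (-0.69). Casp2 passed the filter only through p53-/- libraries, so the filter favoured a difference in it. In treated cells 5 of the 21 genes were higher and 0 were lower, against 6.82% and 5.25% of all tested genes. The 5 were Siva1, Foxo3, Fbxw7, Bag1 and Foxo1, with Foxo3 kept by the filter only through treated wild type.

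**Figure D4:**
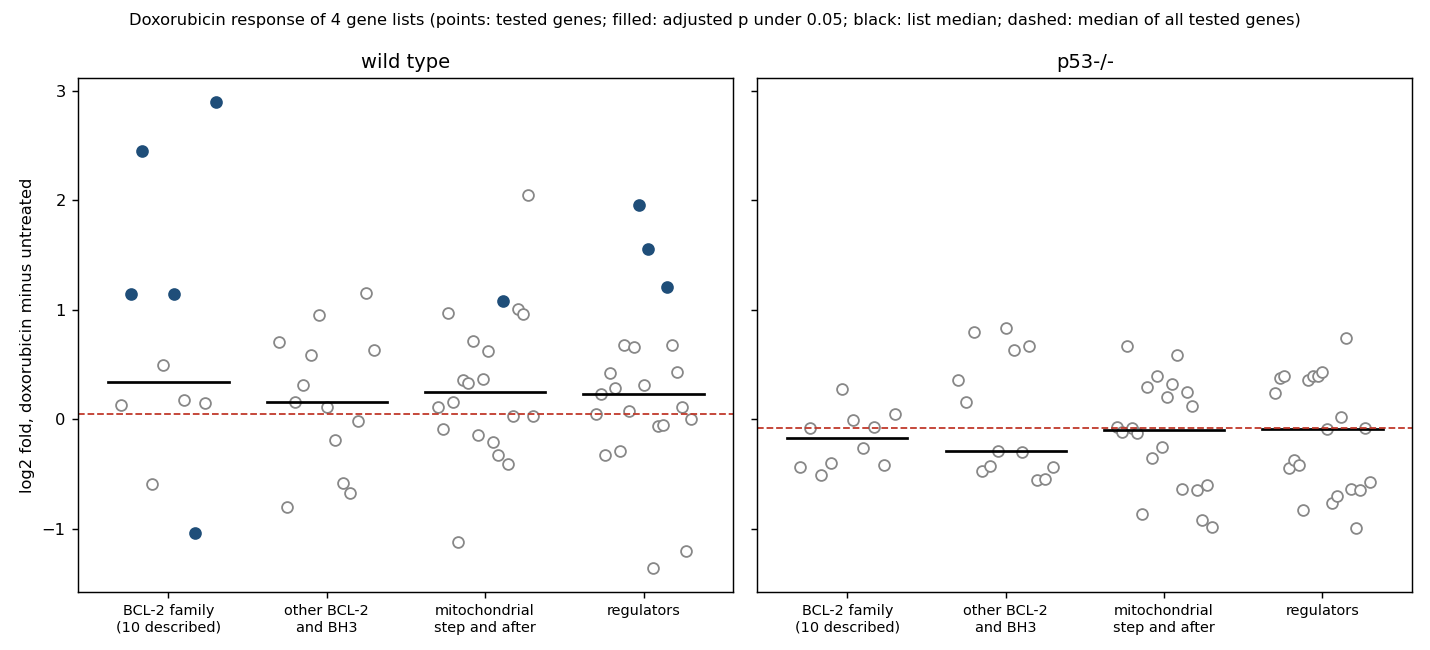
Log2 fold of doxorubicin minus untreated (y axis) for the tested genes of the 4 lists in wild type and p53-/- cells. Filled points passed an adjusted p under 0.05, black lines are list medians and the dashed line is the median of all tested genes, 0.05 and -0.075. In wild type 5, 0, 1 and 3 points are filled, and in p53-/- cells 0 are.

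The genes closest to each called member in pattern were taken over the 10 libraries by Pearson correlation of log2 CPM, among the 5557 or 5558 genes averaging at least 3 in log2 CPM. Libraries share treatment and genotype, so the values describe likeness only. Bbc3 was closest to Gpsm1 (0.993), the p53 target Ccng1 (0.988) and Tef (0.986). Pmaip1 was closest to Arvcf (0.983), Scx (0.98) and Hyal1 (0.971), and Bax to Lmbr1l (0.967), Cln8 (0.953) and Pgf (0.948). Bok was closest to Bysl (0.947), Cmklr1 (0.943) and Mapk12 (0.94). Bcl2l1 was closest to Tbc1d25 (0.984), Capg (0.977) and Sac3d1 (0.976). Bcl2l11 had the weakest matches, with Bet1l (0.919), Kdsr (0.903) and Notch1 (0.898), and Bid was closest to Plekha3 (0.957), Rbbp4 (0.945) and Napg (0.944).

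**Figure D5:**
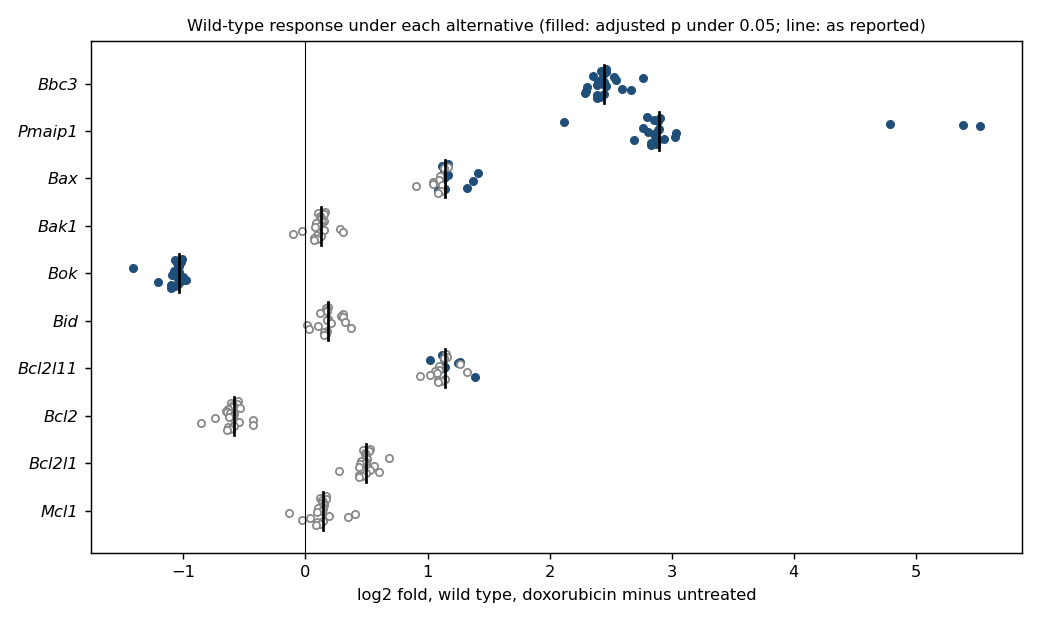
Wild-type log2 fold of each gene (x axis) under each alternative setting. Filled points passed an adjusted p under 0.05 there, and the short black line is the value as reported. Bbc3, Pmaip1 and Bok are filled wherever they were tested, Bax and Bcl2l11 hold both kinds of point, and Pmaip1 spreads from 2.12 to 5.53.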

How the data were processed

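RNA was measured by 3′ sequencing of poly(A) RNA in 10 libraries (wild type 3 untreated and 3 treated, p53-/- 2 and 2). Each file held 1 value a gene, deposited by the authors on a log2-like variance-stabilised scale, without a header. The submitters' processing notes name DESeq and mm9, and other settings are not given here. Whole reads were recovered from these values as steps along 1 curve, since equal reads share a value in a library. Above the first 250 reads there were 19710 distinct values, of which 99.92% came within 0.01 of a whole read, and the 16 others all had at least 148385 reads. The depths in the report are sums of these reads. No 2 of the libraries were identical.

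Genes with at least 1 CPM in 2 libraries were kept (11177 of 20207), scaled by the trimmed mean of M values (TMM), and tested as log2(CPM + 0.5) with limma-trend (limma 3.58.1, R 4.3.3). One model held a mean for each of the 4 groups over all 10 libraries, so the groups share 1 estimate of spread with 6 residual degrees of freedom. A fold on this scale understates the change of low genes. p-values were two-sided and adjusted by Benjamini-Hochberg over all tested genes, with a threshold of 0.05. Ratios for genes with under 20 reads in a group carry exact binomial 95% intervals, which cover counting error only. The fit was tested on simulated data.

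The members and lists were chosen with earlier results of these data known. Named genes were all members, the called genes of 3 lists up to the 6 smallest p per list and comparison, and the 3 genes most like each called member. Exceptions are marked in the text. A first version filtered after scaling. It was replaced, after its counts had been seen, by the order that earlier work on these files used, and is kept as an alternative.

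Same-numbered wild-type libraries deviated together from their group means (correlations 0.581, 0.342 and 0.611, against -0.504 to -0.018 for other numbers), so the numbers pair them, a pairing taken from the data. The reported tests, those of the wild-type response included, held no block and so ignored this pairing. With the replicate block the wild-type response called 2600 genes, against 1406 as reported, and the same 5 of the 10 genes. In p53-/- cells, with 2 libraries a group, the value of 0.385 cannot settle a pairing. By their Y-linked and Xist reads, the 2 libraries numbered 2 are not repeats of 1 cell source. Alternatives covered scaling, filters, the added CPM, the deposited values, limma-voom, the libraries fitted, a replicate block and each library left out. The block was set within each genotype for the responses and their difference. For the genotype comparisons it joined libraries of the same number across genotypes, which the labels do not link. The p53 peak list (mm9) was not used here, because the windows at hand are on another build.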

Additional observations from a re-analysis of the deposited data

Results flagged for a closer look

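The doxorubicin response of Bbc3 differed between genotypes, with a wild-type minus p53-/- difference of log2 folds of 2.96 by limma-trend (adjusted p = 0.0088). Bbc3 was higher with treatment in 3 of 3 wild-type pairs and both treated p53-/- libraries were below both untreated ones. For Pmaip1 the difference was 2.85 (adjusted p = 0.00432), and its untreated wild-type libraries held 1 read in all. Pmaip1 passed the filter only through treated wild-type libraries, so the filter favoured this difference. The size of the difference changed with the scale: 2.09 with 1 CPM added, 4.69 with 0.1 CPM added, 5.24 on the deposited values and 5.42 with limma-voom. Without both p53-/- libraries numbered 2, neither difference passed.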

How the results depend on the processing

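In all, 43 values of the 10 genes changed sign under an alternative, none of them called. For treated wild type minus p53-/-, Bak1 gave -0.229 with library size alone, -0.03 with upper quartile scaling, -0.034 with a 5 CPM filter and -0.315 without both p53-/- libraries numbered 2. Bcl2 gave -0.236, -0.052, -0.06 and -0.105 there and -0.007 both without a filter and with the filter after scaling, and Mcl1 -0.096 with library size. Untreated, Bcl2 gave -0.14 with library size and -0.008 without the libraries numbered 2, and Bax 0.019 with the replicate block. In the p53-/- response Bcl2l11 gave 0.039 (median-of-ratios), 0.026 (no filter, and filter after scaling) and 0.043 (deposited values), and without the libraries numbered 2 Pmaip1 gave -0.04 and Bok 0.043. The alternatives without those libraries and with the filter after scaling were chosen after seeing the data.

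Of the 10 genes, the wild-type response called 3 with upper quartile scaling, no filter, only the libraries compared, or without the libraries numbered 2. The difference called 1 with a 5 CPM filter, where Pmaip1 was not tested, and 0 without the libraries numbered 2. The untreated comparison called 1 with upper quartile scaling, no filter, 5 CPM, 0.1 CPM added, voom or the block, and 0 without the libraries numbered 2. Over all genes, wild type called 784 with only its own libraries, 2600 with the block and 778 without the libraries numbered 2. The p53-/- response called 2 without a filter. The difference called 169 with upper quartile, 1076 with the block and 0 without the libraries numbered 2. The untreated and treated comparisons called 216 and 304 without those libraries, and the treated one 670 with its own libraries alone. The cause of these shifts was not tested, beyond the fewer samples or genes that some alternatives hold. The replicate block changed the calls of Bok (difference, adjusted p = 0.0449), Bax (treated, 0.0216) and Bid (untreated, 0.0713) and no other member's. For Bax and Bid it joined same-numbered libraries of unlike genotype, a link that is not shown. For Bok it paired p53-/- libraries by number, and those numbered 2 are not of 1 cell source.

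Leaving out each library in turn, the wild-type response called 3 to 5 of the 10 genes and 712 to 1459 in all, the p53-/- response 0 and 0 to 1, the difference 1 to 2 and 38 to 318, the untreated comparison 0 to 3 and 420 to 4223, and the treated one 2 to 4 and 467 to 1493. Values that changed sign spanned, in log2, in the wild-type response, Mcl1 from -0.138 to 0.409, Bak1 from -0.1 to 0.307, and in the p53-/- response, Bcl2l11 from -0.152 to 0.123, Bax from -0.461 to 0.289, Bok from -0.38 to 0.216, Bid from -0.59 to 0.056, Pmaip1 from -0.021 to 0.109, and in the difference, Bcl2l1 from -0.021 to 0.366, and in the treated comparison, Bak1 from -0.311 to 0.35, Bcl2 from -0.251 to 0.175, Mcl1 from -0.004 to 0.395, and in the untreated comparison, Bax from -0.561 to 0.213.

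Of the genes called in the difference, 80.8% were higher, against 91% with library size, 95.3% with upper quartile scaling and 65.6% with the block. Untreated this share was 38.4%, against 13.4% and 26.5%, and treated 56.5%, against 31.4% with library size. The median of all genes moved from -0.087 to -0.433 (library size) and -0.244 (upper quartile) untreated, and from -0.03 to -0.293 (library size) treated. Bcl2l1 kept its direction under every scaling. Bid and Pmaip1 rest on few reads, at most 41 and 44 in a library.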
